A study of Mus musculus with 48 samples.

Results

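Kinesins are motor proteins that walk along microtubules or take them apart, and centromere proteins build the platform on each chromosome to which the spindle attaches. All probes of the array whose gene symbol is that of a kinesin (KIF or KIFC and a number) or of a centromere protein (CENP and a letter) were taken, which gave 69 probes for 47 of the 18991 gene symbols on the array. Gene symbols are written as in the array file, in capitals. By their known roles the 47 genes were put into 10 mitotic kinesins, 15 centromere proteins, 13 transport kinesins and 9 other kinesins. A probe was counted as above background on an array at a detection p under 0.01, and a level is given for the 30 genes whose brightest probe was above background on at least 3 of the 48 arrays. The other 17 genes were not above background on any array.

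Mitotic kinesins slide and sort spindle microtubules, move chromosomes and close the division furrow, and most of them are made only in cycling cells, with the highest level in G2 and M phase. The centromere proteins comprise CENPA, the histone H3 variant that marks the centromere, the inner kinetochore network that assembles on it, and some factors that join the kinetochore in mitosis. Transport kinesins carry organelles, vesicles and protein complexes in dividing and resting cells alike. Confluent 3T3-L1 preadipocytes that receive the hormone cocktail re-enter the cell cycle before they turn into fat cells, a step known as mitotic clonal expansion.

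3T3-L1 is an established mouse preadipocyte line (ATCC CL-173). Cells were transfected before differentiation with 50 nM of a pool of siRNAs against PPARγ, the nuclear receptor that drives adipogenesis (the PPARγ KD), or with the same amount of a pooled non-targeting siRNA (control siRNA). Differentiation was the same for both groups and had 2 steps, each of 48 hours. The first began at confluence and combined the glucocorticoid dexamethasone, at 0.25 μM, and the phosphodiesterase inhibitor isobutylmethylxanthine (IBMX), at 0.5 mM. In the second, cells were given the PPARγ ligand rosiglitazone, at 1 μM, and insulin, at 5 μg/ml. Cells were harvested on day −2 and on days 0, 1, 2, 3, 4, 5 and 6, counted from the rosiglitazone treatment, in 3 independent biological replicates of each siRNA and day, which makes 16 groups and 48 arrays. The group labels give siRNA, day and replicate. The design text of the series names IBMX, dexamethasone and insulin without days, so the timing of each agent was taken from the protocol given with the samples. P-values measure the spread of arrays within groups, pooled over the 48 arrays, after differences shared by all arrays of a replicate number are removed. For the siRNA over all days, the days of one replicate count separately. Those p-values do not measure how far the effect varied between the 3 replicates.

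Levels are log2 intensities after background correction and scaling, and differences are log2 differences from one limma fit with the replicate number as a block. Calls are Bonferroni-adjusted p-values of at most 0.05 over all 24613 probes. The targeted gene, PPARG, was lower in the PPARγ KD in 24 of 24 pairs of arrays that share day and replicate number (mean log2 difference −2.34, SE 0.04, adjusted p = 9.48e-34). On the arrays of replicate 3, 33.5% to 35.4% of all probes were above background, against 36.8% to 40.4% in replicates 1 and 2, and the values of each replicate are given where they differ. Adipocyte markers (7 of 7 above background) had a summed linear intensity of 10500 to 140000 per array under control siRNA and of 4090 to 32900 in the PPARγ KD, and fibroblast and preadipocyte markers (8 of 8 above background) one of 69500 to 123000 and 95100 to 137000. In the PPARγ KD the adipocyte markers FABP4, PLIN and RETN were above background on 0 arrays. None of the 5 leukocyte, 4 endothelial and 4 epithelial markers on the array was above background on any array, the summed intensities staying between 96.7 and 231. In RNA from whole cultures, fewer cells of a type and less RNA per cell cannot be told apart.

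The means of the mitotic kinesins and of the centromere proteins fell to day 0 and were highest on day 1 in both groups, whereas the mean of the transport kinesins was not highest on day 1 in either group. Under control siRNA the mean of the 6 mitotic kinesins above background fell from 9.35 ± 0.27 (SD, n = 3) on day −2 to 8.16 ± 0.15 on day 0, rose to 9.76 ± 0.19 on day 1 and then declined to 8.63 ± 0.10 on day 6. From day −2 to day 0 their mean changed by −1.23, −1.30 and −1.04 in replicates 1, 2 and 3, and from day 0 to day 1 by 1.61, 1.64 and 1.54. The mean of the 8 transport kinesins changed by −0.24 ± 0.04 and by −0.05 ± 0.04 over the same steps. The change of the mitotic class exceeded that of the transport class by 1.65 ± 0.09 from day 0 to day 1 with control siRNA and by 1.19 ± 0.22 with PPARγ siRNA, in each of the 3 replicates. These means are given with no test.

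**Figure D1:**
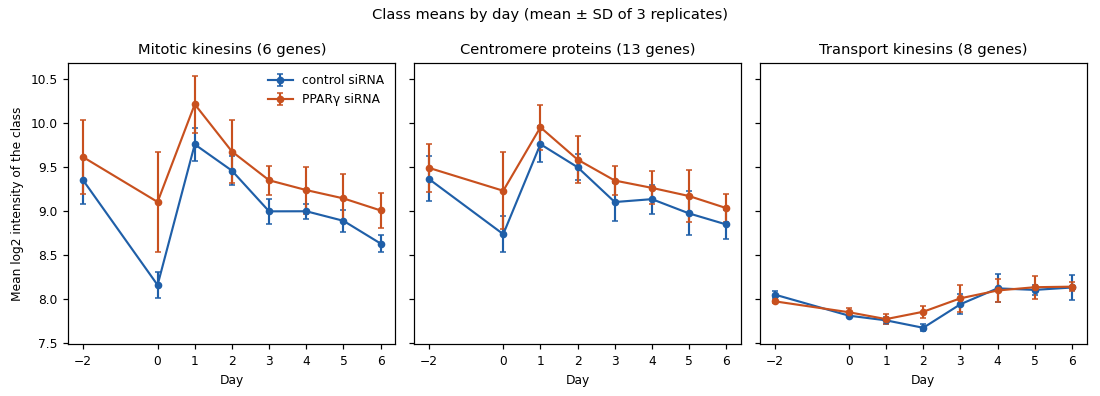
Mean log2 intensity of 6 mitotic kinesins, 13 centromere proteins and 8 transport kinesins by day, with control siRNA in blue and the PPARγ KD in orange, as mean ± SD of 3 replicates. Mitotic and centromere means dip on day 0 and peak on day 1, with the dip shallower in the PPARγ KD. Levels of different probes cannot be compared, so each panel is read for itself.

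Promoter sequences of RefSeq (GRCm38.p6) were read for 40 of the 47 genes as windows from 250 bases before to 50 bases after the annotated start, and 3 short sequences were searched on both strands. TTTGAA and TTCGAA are cores of the cell cycle homology region, and CCAAT is often found beside it. TTTGAA stood in 7 of 9 mitotic kinesin genes (KIF11, KIF15, KIF22, KIF23, KIF2C, KIF4 and KIFC1), in 3 of 15 centromere genes (CENPA, CENPF and CENPN), in 1 of 8 transport genes (KIF1A) and in 17.9% of all 32851 promoters. In 6 of the 7 mitotic genes it lay within 30 bases of the start, a window chosen after the matches were seen, as it did in 3 of 15 centromere genes, 0 of 8 transport genes and 3.48% of all promoters. CCAAT stood in 6 of 9 mitotic, 10 of 15 centromere and 2 of 8 transport genes and in 37.4% of all promoters, and TTCGAA in 0 of 9, 1 of 15 (CENPM) and 0 of 8 and in 1.56% of all promoters.

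Stretches from 95 bases before the annotated start to 24 bases after it are shown for the 4 mitotic kinesins with a match near the start and a called siRNA difference on day 0, for CENPA and CENPN, and for KIF5C and KIF3C, the transport kinesins called for the siRNA on day 2. They are written 5′ to 3′ on the strand of the gene, and capitals mark TTTGAA or CCAAT on either strand, so that CCAAT on the other strand reads ATTGG. The arrays measure no binding, and a match describes these letters only.
KIF23 (chr9:61946775-61946894, minus strand): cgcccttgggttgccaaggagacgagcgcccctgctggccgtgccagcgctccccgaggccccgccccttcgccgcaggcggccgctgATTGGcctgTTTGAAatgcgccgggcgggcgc
KIF22 (chr7:127042396-127042515, minus strand): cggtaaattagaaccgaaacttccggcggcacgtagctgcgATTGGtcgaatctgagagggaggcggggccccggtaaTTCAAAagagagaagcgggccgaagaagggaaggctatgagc
KIF4 (chrX:100625970-100626089, plus strand): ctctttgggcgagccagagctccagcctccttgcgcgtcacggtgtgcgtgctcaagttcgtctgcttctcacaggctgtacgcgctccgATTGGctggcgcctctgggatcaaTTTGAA
KIFC1 (chr17:33890609-33890728, minus strand): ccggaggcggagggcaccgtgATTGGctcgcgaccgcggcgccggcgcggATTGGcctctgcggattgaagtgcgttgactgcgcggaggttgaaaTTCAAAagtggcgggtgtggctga
CENPA (chr5:30666791-30666910, plus strand): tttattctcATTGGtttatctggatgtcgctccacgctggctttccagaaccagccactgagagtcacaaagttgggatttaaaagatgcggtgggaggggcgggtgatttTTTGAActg
CENPN (chr8:116921645-116921764, plus strand): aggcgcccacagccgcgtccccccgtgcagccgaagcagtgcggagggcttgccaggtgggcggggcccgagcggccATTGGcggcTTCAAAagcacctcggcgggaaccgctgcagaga
KIF5C (chr2:49619191-49619310, plus strand): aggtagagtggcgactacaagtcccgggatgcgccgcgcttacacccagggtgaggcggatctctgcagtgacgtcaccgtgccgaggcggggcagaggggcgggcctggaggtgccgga
KIF3C (chr12:3365037-3365156, plus strand): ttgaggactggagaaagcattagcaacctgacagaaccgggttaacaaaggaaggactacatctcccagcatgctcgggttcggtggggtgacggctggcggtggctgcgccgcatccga

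Counted from the annotated start as 0, TTTGAA begins at −17 in KIF22, 1 in KIFC1, 2 in KIF23, 19 in KIF4, −9 in CENPN and 16 in CENPA. In these 6 genes an ATTGG stands upstream of it within the stretch, and the stretches of KIF5C and KIF3C hold neither sequence. KIF26B, whose order of days −2, 0 and 1 ran against the mitotic kinesins, also holds TTTGAA at −9. CENPH, CENPI, CENPK, CENPM, CENPO, CENPP and CENPQ, which rose on day 1 with CENPA, hold no TTTGAA in the window, and CENPM holds TTCGAA. Of the 8 other kinesin genes searched, 2 hold TTTGAA (KIF26B and KIF27).

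Called probes were counted next. Under control siRNA 27 member probes of 24 genes changed over the 8 days (F-test over 7 contrasts against day −2), where 23.5% of all probes were called, and in the PPARγ KD 25 member probes of 22 genes did so, where 16.5% of all probes were called. From day −2 to day 0 under control siRNA 16 member probes were lower (6 mitotic, 8 centromere and 2 transport), against 5.04% of all probes. In the PPARγ KD 4 member probes were lower on day 0 (KIF23, CENPT, KIF5C and KIFC3), against 4.02% of all probes. From day 0 to day 1, a contrast added after the data were seen, 17 member probes were higher under control siRNA (6 mitotic, 10 centromere and 1 transport), against 4.89% of all probes. In the PPARγ KD 17 were higher as well (6 mitotic, 9 centromere and 2 transport), against 4.7% of all probes. By day 6, 10 member probes were lower than on day −2 with control siRNA, as were 6 with PPARγ siRNA, against 2.14% and 1.92% of all probes. The counts were sensitive to the replicates: without replicate 1, 6 member probes were lower on day 0 under control siRNA and 1 on day 6, and 0 were lower on day 6 in the PPARγ KD, while without replicate 2 these counts were 8, 3 and 1. The change over days was called for 15 and 9 member probes (control siRNA and PPARγ KD) without replicate 1, for 17 and 14 without replicate 2, and for 22 and 20 without replicate 3. The rise on day 1 was called for 14 and 10 without replicate 1 and for 14 and 14 without replicate 2.

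Among the mitotic kinesins, KIF22, a chromokinesin that pushes chromosome arms away from the poles, had log2 intensities of 10.04, 9.93 and 10.39 in replicates 1, 2 and 3 of control siRNA on day −2, of 8.66, 8.47 and 8.88 on day 0 and of 10.80, 10.59 and 11.08 on day 1. The values of the 3 days did not overlap. The fall to day 0 was −1.45 (SE 0.14, adjusted p = 3.18e-08) and the rise to day 1 was 2.16, or 4.46-fold (adjusted p = 1.88e-13).

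KIF2C, which takes apart microtubule ends at the kinetochore, lay at 9.89, 9.93 and 10.12 on day −2, at 8.75, 8.75 and 8.93 on day 0 and at 10.85, 10.45 and 11.11 on day 1. Each day was again apart from the others, with a fall of −1.17 (SE 0.15, adjusted p = 8.03e-05) and a rise of 1.99 (adjusted p = 4.26e-11). KIF23, the motor of the centralspindlin complex in cytokinesis, lay at 11.92, 11.85 and 10.77 on day −2, at 10.17, 10.06 and 9.17 on day 0 and at 11.92, 12.04 and 10.98 on day 1. Replicate 3 was lower than the others on all 3 days but fell and rose like them, and the fall was −1.71 (SE 0.11, adjusted p = 4.46e-13) and the rise 1.85 (adjusted p = 3.68e-14).

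KIF4, a chromokinesin that also bundles the central spindle, changed by −1.15 to day 0 (adjusted p = 2.3e-08) and by 1.56 from day 0 to day 1 (adjusted p = 2.74e-12), and its other probe above background changed by −1.05 and 1.61. KIFC1, a minus-end motor that focuses spindle poles, changed by −1.13 (adjusted p = 0.000411) and 1.46 (adjusted p = 8.85e-07). KIF15, a spindle motor that backs up KIF11, was above background on 11 of 48 arrays and on none of the 3 control arrays of day 0, and no fold is given for it. After day 1, levels declined. By day 6 KIF4 was below day −2 by 0.92 (log2 difference −0.92, adjusted p = 9.51e-06) and KIF23 by 0.75 (−0.75, adjusted p = 0.00242) under control siRNA, whereas KIF22 (−0.64), KIF2C (−0.73) and KIFC1 (−0.71) did not pass the threshold.

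**Figure D2:**
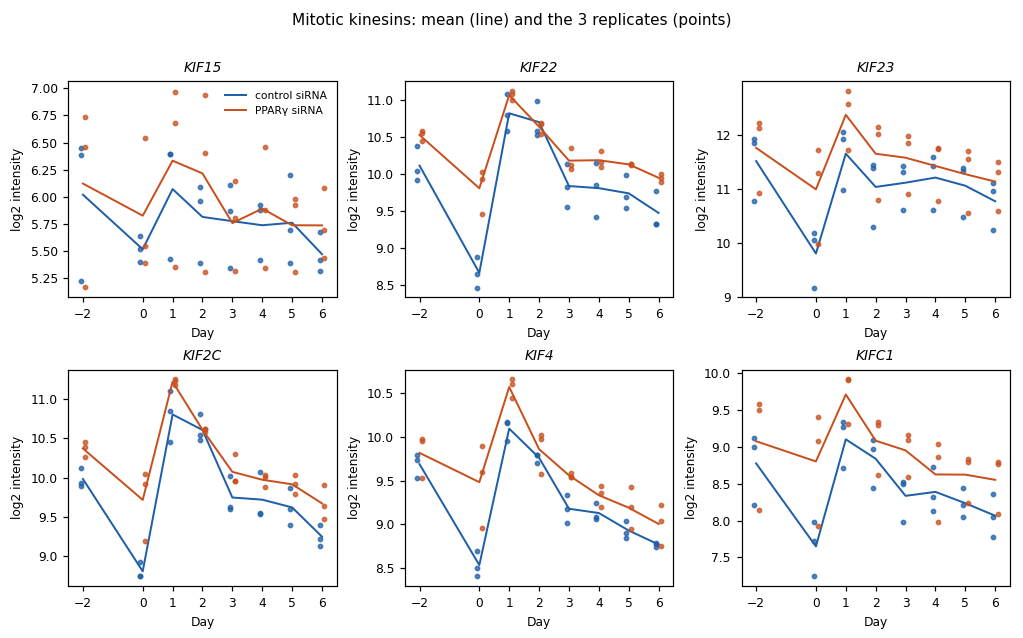
Log2 intensity of the 6 mitotic kinesins above background by day, control siRNA in blue and PPARγ KD in orange, with a point for each of 3 replicates and a line through the means. KIF22, KIF23, KIF2C, KIF4 and KIFC1 share the dip on day 0 and the peak on day 1, and KIF15 stays near the background.

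The mean difference between the siRNAs was widest on day 0 for the mitotic kinesins (0.94 ± 0.47) and the centromere proteins (0.49 ± 0.24), and on day 2 for the transport kinesins (0.18 ± 0.07, against 0.04 ± 0.06 on day 0). The median of the 8 transport kinesins hardly differed between these days (0.115 on day 2 and 0.109 on day 0). Their differences on day 2 ran from −0.53 to 0.84, with 3 genes below 0. KIF5C and KIF3C were the transport kinesins called on that day. An effect that differed between days was called by the F-test in limma for 0 mitotic and 0 centromere probes, of which 7 and 9 had an unadjusted p under 0.05 and 4 and 6 passed Benjamini-Hochberg adjustment. Over all days 15 member probes of 13 genes were higher in the PPARγ KD, against 6.37% of all probes, and 1 member probe, KIF3A, was lower, against 6.74% of all probes. The 15 comprised 6 mitotic, 6 centromere and 3 transport probes. On day 0 alone 10 member probes were higher in the PPARγ KD (6 mitotic and 4 centromere), against 1.67% of all probes, and none of the transport kinesins was among them. On day 2, 3 of the 69 member probes were higher, a share no larger than the 4.74% of all probes. The 3 probes belong to 2 transport kinesins (KIF3C with both probes, and KIF5C). On days −2, 1, 3, 4, 5 and 6 limma called 1, 2, 0, 0, 0 and 1 member probes in either direction, against 0.861%, 2.91%, 2.76%, 2.4%, 3.24% and 3.88% of all probes. On days 3, 4 and 5, 19, 11 and 18 member probes had an unadjusted p under 0.05, and 10, 4 and 6 passed Benjamini-Hochberg adjustment. The share of all probes was not counted at these looser thresholds, here or for the effect that differed between days. These counts therefore cannot be set against the whole array. The siRNA calls rested on replicates 1 and 2: the 15 became 3 without replicate 1, 4 without replicate 2 and 15 without replicate 3, and the 10 of day 0 became 1, 1 and 14. The 3 calls of day 2 became 0 without replicate 1 and 1 without replicate 2. Without the replicate block 8 member probes were higher over all days and 4 on day 0.

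On day 0 KIF22 lay at 8.66, 8.47 and 8.88 under control siRNA and at 9.93, 10.04 and 9.47 in the PPARγ KD, with no overlap and a difference of 1.14 (SE 0.14, adjusted p = 1.59e-05). KIF23 lay at 10.17, 10.06 and 9.17 against 11.28, 11.71 and 9.97, so that the groups overlapped through replicate 3 while the PPARγ KD was higher within each replicate (1.19, SE 0.11, adjusted p = 2.73e-08). KIFC1 lay at 7.98, 7.72 and 7.24 against 9.08, 9.41 and 7.92 (1.16, SE 0.16, adjusted p = 0.000242), with the same overlap. KIF4 lay at 8.70, 8.50 and 8.41 against 9.60, 9.89 and 8.96, with no overlap (0.95, adjusted p = 4.32e-06). For KIF2C the difference was 0.91 (adjusted p = 0.0171), with values for KIF2C of 8.75, 8.75 and 8.93 against 9.91, 10.04 and 9.20 that did not overlap.

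Averaged over the 8 days, KIFC1 was higher in the PPARγ KD by 0.51 (SE 0.06, adjusted p = 1.41e-06), KIF23 by 0.50 (SE 0.04, adjusted p = 1.42e-10), KIF22 by 0.42, KIF2C by 0.38 and KIF4 by 0.34, each in 3 of 3 replicates. KIF23 was higher in 24 of 24 pairs of arrays of one day and replicate, and the other 4 in 21 or 22 of 24. The size differed between replicates, since the mitotic mean on day 0 was higher by 0.93, 1.42 and 0.48 in replicates 1, 2 and 3, and over all days by 0.38, 0.59 and 0.19. Over all days the SD of the 3 replicate effects was 0.27 for KIF22, 0.21 for KIF2C and 0.19 for KIFC1. It was 0.13 for KIF23 and 0.12 for KIF4. The SE of the fit lay between 0.04 and 0.06 for these genes. With the 4 mitotic kinesins at background included, the mean difference was 0.60 on day 0 and 0.22 over all days. The median difference on day 0 was 1.05 for the 6 mitotic kinesins, 0.57 for the 13 centromere proteins and 0.11 for the 8 transport kinesins, beside −0.01 for all 10567 probes above background on at least 3 arrays. For KIF23 the mean difference over days 4 to 6 was smaller than that over days 0 to 2 by 0.58 (−0.58 late minus early), 1 of 2 member probes called in this contrast, against 3.63% of all probes.

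Among the centromere proteins CENPA, CENPM, CENPN and CENPQ had the largest range over days. CENPA, the centromeric histone, lay at 12.91, 12.72 and 12.75 in control siRNA on day −2, at 11.48, 11.39 and 11.58 on day 0, at 13.43, 13.42 and 13.51 on day 1 and at 11.68, 11.77 and 11.89 on day 6. Days −2, 0 and 1 were well apart (−1.31 and 1.97, adjusted p = 6.46e-11 and 1.07e-16), and day 6 was below day −2 by 1.01 (−1.01, adjusted p = 1.22e-07). In the PPARγ KD CENPA on day 0 lay at 12.42, 12.64 and 12.13, above all control arrays of that day (0.92, SE 0.10, adjusted p = 1.63e-06).

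CENPM, a subunit of the inner kinetochore, lay at 7.42, 7.22 and 7.70 on day 0 and at 9.61, 9.56 and 9.78 on day 1 of control siRNA. This rise of 2.20, or 4.61-fold (adjusted p = 4.24e-15), was the largest of any member gene from day 0 to day 1. Its other probe rose by 2.15 (adjusted p = 1.23e-11). The probes of CENPM gave different calls for the siRNA over all days, since the brighter one differed by 0.20 (adjusted p = 1) and the dimmer one by 0.32 (adjusted p = 0.0279).

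CENPN, which reads the CENPA nucleosome, lay at 7.72, 7.49 and 6.98 on day 0 and at 9.22, 9.02 and 8.89 on day 1 of control siRNA. It rose by 1.65 from day 0 to day 1 (adjusted p = 5.17e-09) and was higher in the PPARγ KD over all days by 0.31 (SE 0.05, adjusted p = 0.0195), with 0.38, 0.45 and 0.10 in replicates 1, 2 and 3. CENPQ and CENPO belong to one inner kinetochore subcomplex. CENPQ rose 2.83-fold from day 0 to day 1 of control siRNA (adjusted p = 2.7e-12) and on day 0 lay at 9.33, 9.35 and 8.34 under control siRNA against 9.91, 10.37 and 8.76 in the PPARγ KD (0.68, adjusted p = 0.00368), where replicate 3 was low in both groups and they overlapped. CENPO changed less over days (a rise of 0.61, adjusted p = 0.00247) but had the smallest adjusted p of its class for the siRNA, with a difference over all days of 0.31 (SE 0.03, adjusted p = 4.91e-07) that was 0.33, 0.21 and 0.39 in the replicates.

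CENPT, which links centromeric DNA to the outer kinetochore, lay at 10.38, 10.38 and 9.998 on day 0 of control siRNA and at 10.28, 10.40 and 10.06 after PPARγ siRNA, which is −0.01 (SE 0.10, adjusted p = 1), although over all days it was higher in the PPARγ KD by 0.26 (SE 0.03, adjusted p = 0.000155). CENPH, CENPI and CENPK, further subunits of the network, fell to day 0 under control siRNA by −0.80, −0.70 and −0.87 and rose to day 1 by 1.27, 1.35 and 1.28, all called. CENPP rose by 0.66 (adjusted p = 0.000163).

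CENPB, which binds a repeat motif of centromeric DNA, was not called for the change over days in either group (F-tests, adjusted p = 1) or for the siRNA over all days (0.08, adjusted p = 1). CENPJ, a protein of the centriole and not of the centromere despite its symbol, was not called for the change over days under control siRNA (adjusted p = 0.301) and was above background on 27 of 48 arrays. CENPF, a large kinetochore protein of mitosis, was above background on 7 of 48 arrays, and was at least 1.04-fold higher on day 1 of control siRNA, with 2 of 3 arrays above background, than on day −2, with none, but was not called for the change over days in either group (F-tests, adjusted p = 1).

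**Figure D3:**
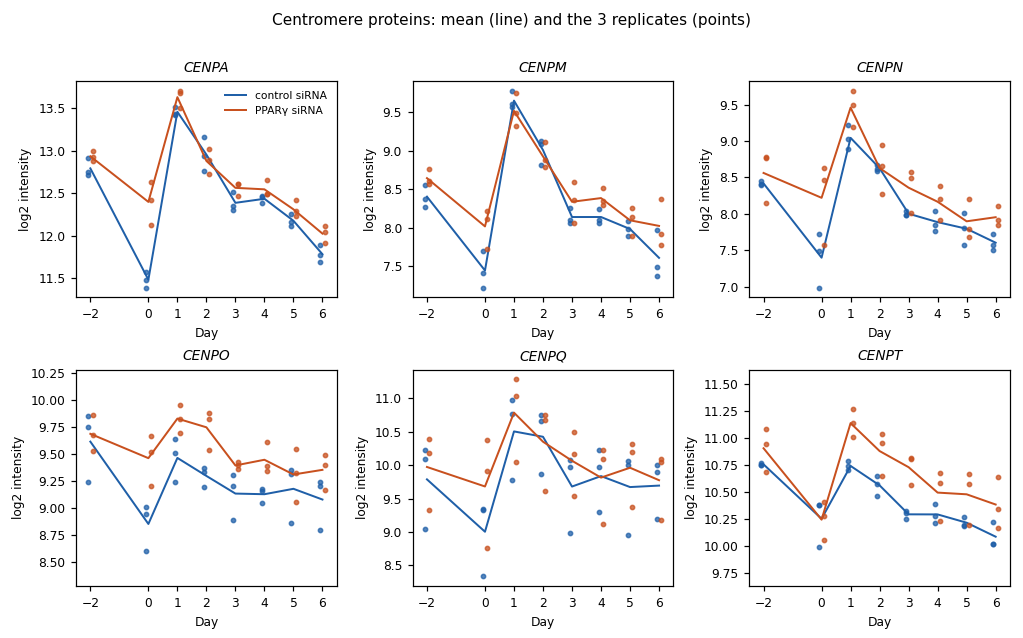
Log2 intensity of CENPA, CENPM, CENPN, CENPO, CENPQ and CENPT by day, control siRNA in blue and PPARγ KD in orange, with 3 replicates as points and means as lines. CENPA, CENPM, CENPN and CENPQ dip on day 0 and peak on day 1 in both groups. CENPO and CENPT have smaller ranges over days, but CENPT is the only centromere protein called lower on day 0 in the PPARγ KD.

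Transport kinesins changed gene by gene. KIF5C, a heavy chain of conventional kinesin, lay at 9.33, 9.20 and 8.91 in control siRNA on day −2, at 7.88, 7.91 and 7.99 on day 0 and at 7.80, 7.74 and 7.76 on day 2, before it returned to 9.18, 9.09 and 8.60 on day 4. The fall to day 0 was −1.22 (SE 0.10, adjusted p = 5.68e-10). In the PPARγ KD KIF5C also fell to day 0 (−0.87, adjusted p = 5.66e-06) but lay at 8.70, 8.56 and 8.55 on day 2, apart from the control arrays by 0.84 (SE 0.10, adjusted p = 1.52e-05). Its difference on day 1 was called as well (0.64, adjusted p = 0.00607), and its rise from day 0 to day 1 was called in the PPARγ KD (0.68, adjusted p = 0.00186) and not under control siRNA (0.32, adjusted p = 1). Over all days it was higher in the PPARγ KD by 0.35 (SE 0.04, adjusted p = 2.3e-07), with 0.36, 0.37 and 0.32 in the replicates.

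KIF3C and KIF3A are motor subunits of kinesin-2, which moves cargo in cilia and axons. KIF3C on day 2 lay at 8.80, 8.77 and 8.93 under control siRNA and at 9.64, 9.56 and 9.58 in the PPARγ KD, with no overlap (0.76, SE 0.10, adjusted p = 3.67e-05), and its other probe differed by 0.95 (adjusted p = 7.85e-06). On day 0 the difference of KIF3C was −0.08 (adjusted p = 1). The siRNA effect of KIF3C differed between days by the other probe (F-test, adjusted p = 0.0413) and not by the brightest one (adjusted p = 0.104). This was 1 of 2 member probes called for an effect that differed between days, against 7.11% of all probes, the other being KIF26B.

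KIF3A went the other way, with a lower level in the PPARγ KD over all days (−0.20, SE 0.03, adjusted p = 0.00191) in 3 of 3 replicates and 20 of 24 pairs. Without any one replicate this call was lost. On day 0 its level was 10.33, 10.20 and 10.11 under control siRNA and 9.71, 9.74 and 9.86 after PPARγ siRNA, with no overlap, but the difference of −0.44 did not pass over all probes (adjusted p = 0.237). A second KIF3A probe, above background on 1 of 48 arrays, was called lower on day 0 (adjusted p = 0.0234) and is given no fold.

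KIFC3, a minus-end motor, lay at 7.22, 7.32 and 7.13 on day −2 of control siRNA, at 6.34, 6.34 and 6.75 on day 0 and at 7.18, 7.36 and 7.28 on day 1, with day 0 below both other days. It fell to day 0 by −0.75 in both siRNAs (adjusted p = 0.0194 and 0.0193) and rose by 0.80 and 0.79 to day 1 (adjusted p = 0.00497 and 0.00725), with 2 of 3 arrays above background on day 0 of each group. Of the transport kinesins, it alone had both a called fall to day 0 and a called rise to day 1 in each group. Its siRNA difference over all days was −0.00 (SE 0.04, adjusted p = 1). KIFC2, another minus-end motor, was above background on 13 of 48 arrays. It lay at 5.89, 5.53 and 5.32 on day −2 of control siRNA, above background on 0 of 3 arrays, and at 7.05, 7.05 and 6.21 on day 6, above on 2 of 3, and was at least 1.29-fold higher on day 6 (adjusted p = 0.0103 from the fit).

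KIF1B, which carries mitochondria and vesicle precursors, was not called for the change over days under control siRNA by its brightest probe (adjusted p = 0.198) and was called by its other probe (adjusted p = 0.0155), which fell by 0.58 from day 0 to day 1 (log2 difference −0.58, adjusted p = 0.0387). KIF13A and KIF1C, which carry vesicles, were above background on 29 and 13 of 48 arrays and were not called for days or siRNA.

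**Figure D4:**
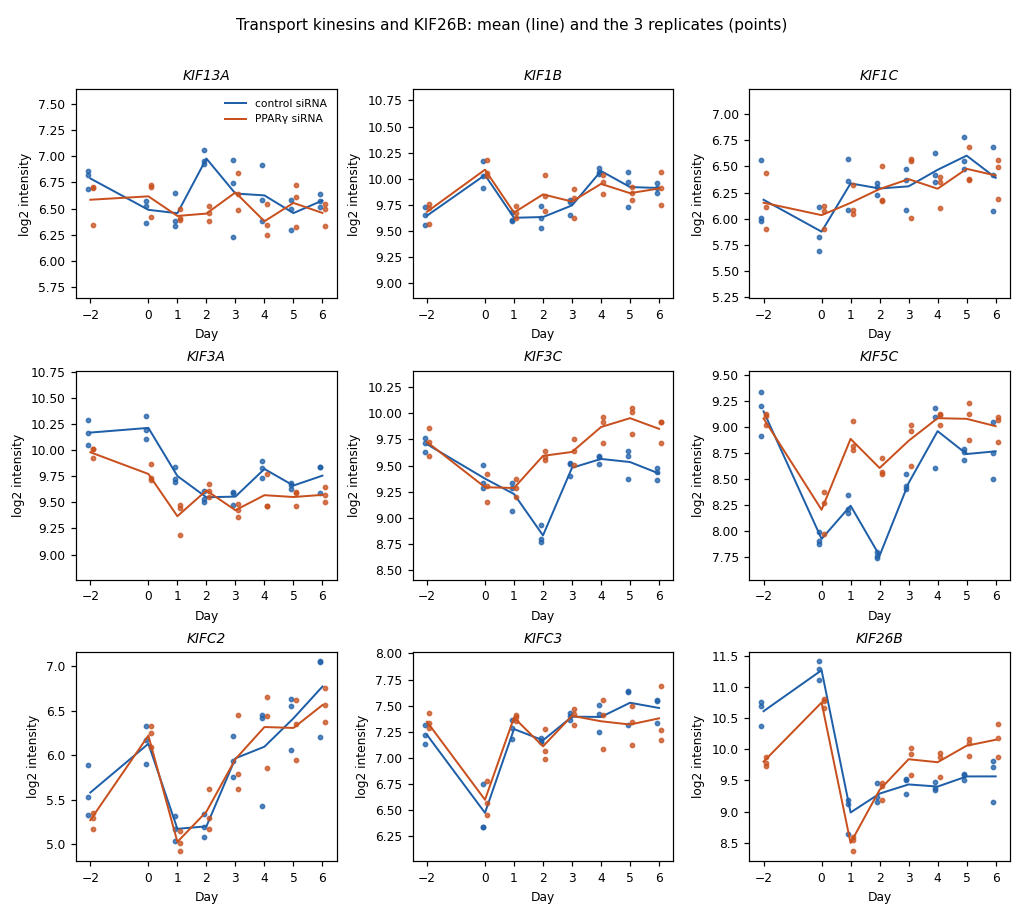
Log2 intensity of the 8 transport kinesins above background and of KIF26B by day, control siRNA in blue and PPARγ KD in orange, with 3 replicates as points and means as lines. KIF5C and KIF3C are lowest on day 2 of control siRNA and separate from the PPARγ KD there, and KIF26B drops between day 0 and day 1 in both.

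KIF26B is an atypical kinesin without motor activity that acts in cell adhesion and movement. Over days −2, 0 and 1 its order of days was opposite to that of the mitotic kinesins. By day 6 it was called lower than on day −2 under control siRNA, as KIF4 and KIF23 were. Under control siRNA it lay at 10.77, 10.70 and 10.38 on day −2, at 11.42, 11.29 and 11.12 on day 0 and at 9.12, 9.19 and 8.64 on day 1. In the PPARγ KD it lay at 9.74, 9.79 and 9.88, at 10.78, 10.82 and 10.66 and at 8.59, 8.54 and 8.36 on these days. The rise to day 0 was 0.66 and 0.95 (adjusted p = 0.00226 and 3.76e-07) and the fall to day 1 was −2.29 and −2.26, or 4.89-fold and 4.79-fold lower (adjusted p = 3.74e-19 and 5.89e-19).

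The siRNA difference of KIF26B turned over during the course. It was −0.81 on day −2 and 0.59 on day 6, both called, and its difference between days had an adjusted p = 5.05e-09 (F-test). On day 6 the PPARγ KD arrays lay at 10.18, 10.42 and 9.87 and the control arrays at 9.72, 9.82 and 9.16, with no overlap. Days 4 to 6 minus days 0 to 2 gave 0.81 for this effect. Over all days the differences cancelled to 0.01 (adjusted p = 1).

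KIF21A and KIF21B, which restrain microtubule growth, changed over days under control siRNA (adjusted p = 0.00637 and 0.00147). KIF21A was higher on day 6 than on day −2 by 0.82 (adjusted p = 0.00416), with 1 of 3 arrays above background on day −2. Neither was called for the siRNA over all days.

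**Figure D5:**
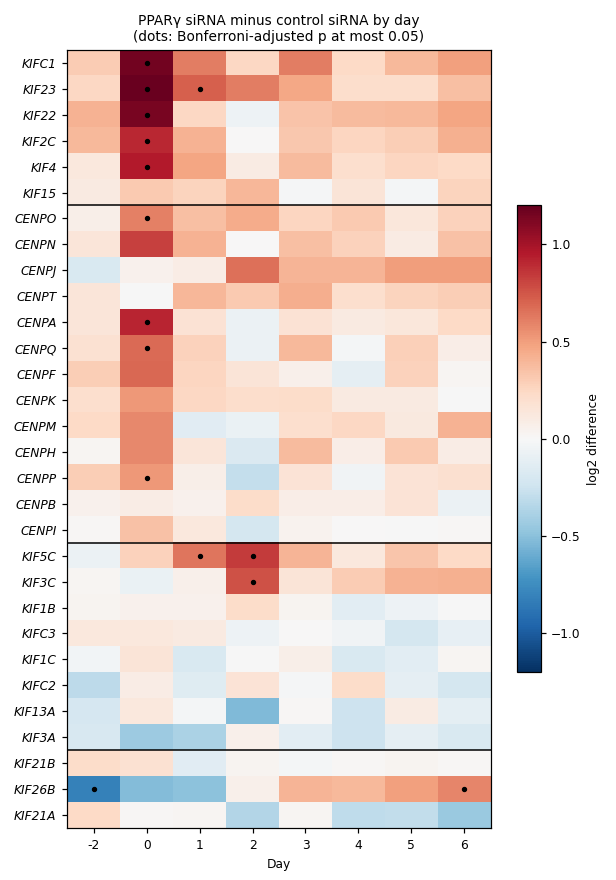
Log2 difference, PPARγ KD minus control siRNA, for the 30 genes above background (rows, brightest probe) on each of 8 days (columns), red for higher in the PPARγ KD and blue for lower, with a dot where the Bonferroni-adjusted p was at most 0.05. Lines part mitotic kinesins, centromere proteins, transport kinesins and other kinesins from top to bottom. The day 0 column is red through the mitotic and most centromere rows, and on day 2 the dots are on KIF5C and KIF3C.

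The 17 genes above background on no array comprised 4 mitotic kinesins (KIF11, KIF18A, KIF2B and KIFC5C), 2 centromere proteins (CENPC1 and CENPE), 5 transport kinesins (KIF13B, KIF17, KIF1A, KIF5A and KIF5B) and 6 other kinesins (KIF12, KIF24, KIF27, KIF2A, KIF7 and KIF9). KIF11 and KIF5B are needed in dividing cells and for organelle transport in most cells, so that a signal at background gives only a bound for the probe and not for the gene.

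Other genes of the mitotic machinery were taken from a list of spindle, kinetochore and cytokinesis genes, of which 38 were on the array and 30 had a brightest probe above background on at least 3 arrays. By the brightest probe of the 38, 20 were lower on day 0 than on day −2 under control siRNA, 27 were higher on day 1 than on day 0 and 21 were higher in the PPARγ KD on day 0. The shares of all probes in these contrasts were 5.04%, 4.89% and 1.67%. The median changes of the 38 were −0.86, 1.46 and 0.79. PRC1, which bundles the central spindle with KIF4, changed by −1.14 and 1.57 and differed by 1.03 on day 0 (adjusted p = 7.93e-06). RACGAP1, the partner of KIF23 in centralspindlin, was above background on 5 control arrays and 15 PPARγ KD arrays, and no fold is given for it.

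AURKB and INCENP of the chromosomal passenger complex, which acts with KIF2C at the kinetochore, differed by 0.99 and 0.59 on day 0 (adjusted p = 0.00119 and 0.0115). Of its other subunits, BIRC5 differed by 0.61 (adjusted p = 0.0345), and CDCA8 (0.68) was not called. ZWINT, a kinetochore linker, was the one gene of the list that was lower in the PPARγ KD over all days (−0.16, adjusted p = 0.00823). The 8 S phase genes on the array were all above background, and by the brightest probe 3 were lower on day 0, 7 were higher on day 1 and 1, MCM2, was higher in the PPARγ KD on day 0. The shares of all probes were 5.04%, 4.89% and 1.67%. The S phase genes had median changes of −0.50, 0.97 and 0.35, and their summed linear intensity per array was 12200 to 35500 with control siRNA and 13600 to 41600 with PPARγ siRNA. Of 21 partners of transport kinesins on the array (light chains, dynein, dynactin and cargo adaptors), 2 were lower on day 0 than on day −2 under control siRNA, 0 were higher on day 1 and 0 differed between the siRNAs over all days, each by the brightest probe. The shares of all probes were 5.04%, 4.89% and, over all days, 6.37% higher and 6.74% lower. The 2 partners lower on day 0 were DYNC1I2 and MAPK8IP1. Over all their probes, KIFAP3, the adaptor of the kinesin-2 motors KIF3A and KIF3C, was higher in the PPARγ KD on day 2 with both called probes (0.71 and 0.86, adjusted p = 0.00151 and 0.000462), and with one of them over all days (0.24, adjusted p = 0.00438). DCTN4, a dynactin subunit, was lower over all days by its dimmer probe (−0.24, adjusted p = 0.00192), and RHOT1, a mitochondrial cargo adaptor, was lower on day 2 (−0.43, adjusted p = 0.0272). The part of adipocyte content, fibroblast content and S phase genes in these differences was not tested.

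Over the 16 means of siRNA and day, the probes whose levels followed the mitotic mean most closely among 10533 other probes above background were 2 probes of 3000004C01RIK (Pearson r = 0.992 and 0.991), LOC640739 (0.992), PRC1 (0.991) and DBF4 (0.990), which activates the replication kinase CDC7. Among members not in the mitotic class, CENPA (0.964) and CENPN (0.963) were closest, while KIFC2 (−0.787), KIF1B (−0.674) and KIF26B (−0.668) ran against it. The 16 means share arrays and replicates, so these values describe the data and carry no p.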

How the data were processed

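RNA from 48 cultures of 3T3-L1 cells was hybridised to Illumina MouseRef-8 arrays. Per the file headers, the authors exported intensity values from BeadStudio 3.3.7 without normalization, so the deposited intensity of a probe is its mean over beads (9 to 95 beads for the member probes, median 35), and the number of arrays limits the precision. The detection p of a probe was taken as 1 minus the deposited detection score, a fraction that nears 1 for bright probes. Deposited intensities ran from 15.4 to 67066.3, with array medians of 105.1 to 141.7, and no arrays held identical values (0 found).

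Intensities were background-corrected with limma 3.58.1 (normexp with the detection p, offset 16) in R 4.3.3, scaled by rank-invariant probes (factors of 0.635 to 1.37) and put on the log2 scale. The model had 16 group means, with replicate as a blocking factor. The study's methods name an ANOVA that removes a batch effect without naming the batch. Replicate number was taken as the block here, and deviations from the group means of same-numbered arrays correlated with r from 0.544 to 0.914 in 24 of 24 pairs. No such value is given for arrays of different numbers, so these correlations do not show that equal numbers pair the arrays. Moderated tests and F-tests over 7 contrasts were adjusted by Bonferroni over 24613 probes. On simulated data with 200 changed probes among 24613, the steps recovered 200 for the siRNA over all days, 198 for day 0, 181 for the effect differing between days and 132 for the change over days in control siRNA, with 0 false calls in each. The changed probes were above background on every array, and larger changes were planted for day 0 and for the effect differing between days. The simulated noise was independent between arrays. It held no siRNA effect that varied between replicates, so the false calls that such variation could bring were not tested.

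A gene is represented by its brightest probe, and class means are unweighted means of genes. Genes given with their value on each array of chosen days are, in each of the mitotic, centromere and transport classes, the 4 with the largest range of daily means under control siRNA and the 3 with the smallest adjusted p for the siRNA over all days, and KIF26B was added after its values were seen. Every member above background on at least 3 arrays is named, and the 5 other probes most alike to the mitotic mean are listed. Members, classes and gene lists were chosen with earlier results of these data known. Alternatives were quantile normalization, no background correction, an offset of 50, a filter on dim probes, no block, Benjamini-Hochberg adjustment, each replicate left out and other choices of probes for the class means. RefSeq promoters were read with python 3.11.15, and 7 members without an entry were not searched. Figures were drawn with matplotlib 3.10.9.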

Additional observations from a re-analysis of the deposited data

Results flagged for a closer look

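The siRNA effect of KIF26B differed between days (F-test in limma, Bonferroni-adjusted p = 5.05e-09). Its mean effect over days 4 to 6 exceeded that over days 0 to 2 by 0.81 on the log2 scale. For KIF3C the dimmer of its probes above background had an effect that differed between days (adjusted p = 0.0413), while the brightest probe did not pass (adjusted p = 0.104). For KIF23 the effect over days 4 to 6 was below that over days 0 to 2, with a difference of −0.58, and the F-test over all days did not pass (adjusted p = 0.063).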

How the results depend on the processing

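Of 480 class values recomputed under the 8 settings that can change a class mean, 431 moved by less than 1 SD of the replicates. Leaving out 1 of 3 replicates cannot move a mean by 1 SD, so the 60 values of each such setting could not count as moved. The values that moved were 23 with every gene of the class and 8 with every probe above background. A further 8 moved without background correction, 6 with an offset of 50 and 4 with quantile normalization. With every gene of the class, those at background included, the mitotic mean changed by −0.65 to day 0 and 0.98 to day 1 under control siRNA and by −0.23 and 0.60 in the PPARγ KD, and mitotic minus transport by −0.55, 1.01 and, in the PPARγ KD to day 1, 0.70. The siRNA effect was then 0.60 on day 0 and 0.22 over all days for the mitotic mean, and 0.52 and 0.21 for mitotic minus transport. Without background correction the mitotic changes under control siRNA were −1.0 and 1.35 and mitotic minus transport to day 1 was 1.43, and with an offset of 50 the rise was 1.49 and mitotic minus transport 1.53. The transport siRNA effect over all days was 0.068 with every probe above background. The effects of KIFC2 (0.0007 with quantile normalization, −0.078 to 0.019 with 1 replicate left out) and KIFC3 (−0.045 to 0.044 with 1 replicate left out, the highest without replicate 2) changed sign near 0.

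Without the replicate block fewer member probes were called: 17 and 15 for days (control siRNA and PPARγ KD), 7 and 1 lower on day 0, 11 and 11 higher on day 1, 3 and 3 lower on day 6, 8 higher in the PPARγ KD over all days, 4 on day 0, 7 on at least 1 day, 1 with an effect differing between days and 1 late minus early. Benjamini-Hochberg adjustment gave 24 higher and 5 lower over all days, 32 on at least 1 day, 17 on day 0, 9 on day 2, 17 lower on day 0 in the PPARγ KD, 22 and 18 lower on day 6, 19 differing between days and 6 late minus early. The share of all probes called was not counted under these alternatives. The filter on dim probes gave 5 differing between days, and quantile normalization gave 1. An offset of 50 gave 3. Counts of 6 were lower on day 0 in the PPARγ KD without background correction, with an offset of 50 and with the filter.

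With 1 replicate left out, counts ranged from 15 to 22 and 9 to 20 for days, 6 to 16 and 1 to 3 lower on day 0, 14 to 16 and 10 to 14 higher on day 1, 1 to 9 and 0 to 8 lower on day 6, 3 to 15 higher and 0 to 0 lower over all days, 1 to 14 on day 0, 0 to 3 on day 2, 1 to 18 on at least 1 day, 1 to 1 differing between days and 1 to 2 late minus early. The causes were not tested. Probes near background carry only bounds.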
